A study of Mus musculus with 12 samples.

Results

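The oligodendrocyte lineage was followed through 33 genes of the count table, 8 marking precursors, 6 marking newly formed oligodendrocytes and 19 marking myelinating cells, out of 43280 gene rows. They were chosen by name, as genes that mark the stages from the precursor to the myelinating cell. Hypothalamic mRNA was sequenced from the 3' end in 12 male C57/Bl6 mouse pups killed at postnatal day 6 (P6), 6 controls and 6 that underwent modified maternal separation, or MMS. MMS pups were taken from the dam each day on consecutive days ending at P6, kept warm beside the cage, and turned onto their backs whenever they righted themselves, and the hypothalamus was dissected directly after the last session. Control pups did not undergo MMS. By the study's methods the male pups of a litter were split between the groups. The methods describe the neonatal groups as drawn from independent litters, the labels do not tie a library to its litter, and the tests treat the pups as independent. The comparison asked whether the lineage, at any stage, differed in mRNA abundance between MMS and control pups.

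Oligodendrocytes arise from precursor cells that carry the platelet-derived growth factor receptor encoded by Pdgfra and the NG2 proteoglycan encoded by Cspg4, and that are held in the lineage by the transcription factors Olig1, Olig2, Sox10 and Nkx2-2. On leaving the cell cycle they pass through a brief state marked by Gpr17, Bcas1 and Enpp6, in which Myrf, the master regulator of myelin genes, is switched on. Myelinating cells then make the structural proteins and lipids of the sheath, among them the products of Mbp, Cnp, Mag and Mog. In the mouse forebrain most myelin forms in the weeks after birth, so the hypothalamus of a young pup holds many precursors and few finished sheaths.

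Libraries held 3765759 to 6560620 counts in controls and 3218777 to 5344080 in the MMS group. Levels are given as CPM, the count divided by the scaled library total and brought to a common total. Since 3' sequencing reads each transcript near its end, its count does not grow with length, and levels of different genes were set side by side without a length correction. In bulk tissue, fewer cells of a type and less RNA per cell cannot be told apart. MMS 2 and MMS 4 lay at 57.8 and 46.3 on the first principal component of all genes, the other libraries between -14.4 and -3.04, and counts of genes and many single values are also given without them. All 18 hypothalamic markers examined passed the count filter. Of 8 Schwann cell markers 1 passed, and the list summed to 21.5 to 28 CPM in controls and 20 to 38.6 CPM in MMS pups.

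The level of each stage was summed over its genes in each pup. The precursor genes summed to a median of 1783 CPM in controls (1458 to 1828) and 1698 CPM in MMS pups (1563 to 2141). The newly formed genes summed to 359 CPM (276 to 703) and 492 CPM (296 to 631). The myelinating genes, the most numerous, summed to 906 CPM (725 to 996) and 904 CPM (826 to 1116). The groups overlapped in all 3 sums, and the log2 ratio of the MMS mean to the control mean was 0.055 for precursor, 0.096 for newly formed and 0.078 for myelinating genes. Each sum leaned on 1 gene, Cspg5 with 51.0% of the precursor sum, Tcf7l2 with 49.4% of the newly formed sum and Mbp with 28.2% of the myelinating sum. Cspg5 and Tcf7l2 are also made by neurons or astrocytes, so these sums are not counts of lineage cells and the stages are not ranked by them.

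**Figure D1:**
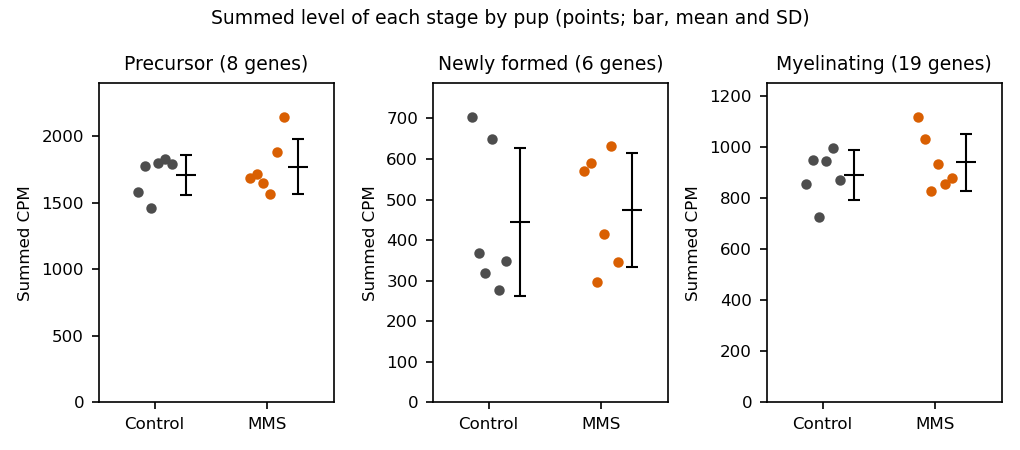
Summed CPM of the precursor, newly formed and myelinating genes in each of the 12 libraries. Points are pups, and the bar gives the mean and SD of 6 pups. The groups overlap in each panel, and the newly formed sum ranges from 276 to 703 CPM among the controls alone.

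Of the 33 genes, 30 passed the filter on low counts and 0 were past an adjusted p of 0.05 in edgeR, where 0.0% of the 13104 genes tested were. The adjusted p-values of the 30 ran from 0.544 to 0.984. At an unadjusted p under 0.05 there were 3 of 30 (Bcas1, Cnp and Gjc3), all higher in MMS, where 9.08% of all genes were, 4.68% higher and 4.4% lower. That share is near the background and is not a result about the lineage. The number was 0 without MMS 2, 0 without MMS 4, 1 without both of them and 1 without Control 1, Control 3 or Control 4, and it was 5 without MMS 3 or MMS 5. Over all genes it moved as well, from 1190 to 674 (5.03%) without both, and to between 700 and 1804 on leaving out 1 library. In 0 of the 30 did the groups separate without overlap, against 0.389% of all genes. In 19 of 30 the log2 fold change was above 0, where 50.1% of all genes were, and its median was 0.073 against 0.00091 over all genes. By stage, 6 of 8 precursor genes were above 0 (median 0.069), 5 of 6 newly formed genes (median 0.18) and 8 of 16 myelinating genes (median 0.067). Without MMS 2 and MMS 4, 14 of 30 were above 0, and the medians were 0.021, 0.11 and -0.055.

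**Figure D2:**
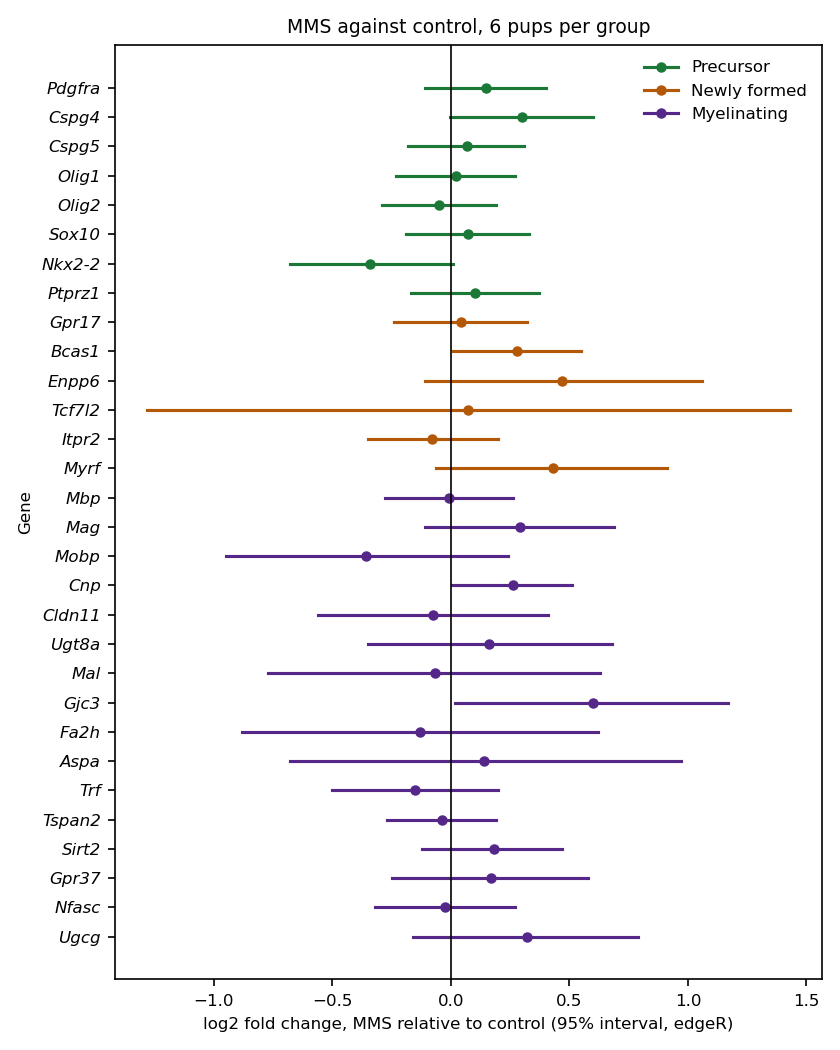
Log2 fold change of MMS relative to control for the 30 lineage genes tested, with the 95% interval from edgeR. The intervals of Bcas1, Cnp and Gjc3 exclude 0 before adjustment, those of the other 27 include it, and the widest is that of Tcf7l2 (-1.28 to 1.43).

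The intervals show how closely each log2 fold change was estimated. The half-width of the 95% interval was 0.32 on the log2 scale for the median gene and 0.23 for the narrowest, that of Tspan2. In 27 of 30 genes the whole interval lay within a log2 change of 1 in either direction. These intervals are not adjusted for the number of genes tested and are not limits of detection. Changes within them could have gone unseen with 6 pups per group.

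Among the precursor genes, those for surface and matrix proteins had mRNA levels well above the counting floor. Cspg5, which encodes the proteoglycan neuroglycan C, was the highest of all 33 genes. It ran from 786 to 960 CPM in controls (median 864) and from 684 to 1193 CPM in MMS pups (median 889). The MMS values lay on both sides of the controls, with MMS 2 and MMS 4 lowest and MMS 5 and MMS 6 highest. Its log2 fold change was 0.066 (95% interval -0.18 to 0.31, edgeR adjusted p = 0.866), and without MMS 2 and MMS 4 Cspg5 was the 1 lineage gene at an unadjusted p under 0.05 (log2 fold change 0.21, edgeR adjusted p = 0.961). Ptprz1, a receptor phosphatase of precursors and radial glia, ran from 152 to 248 CPM in controls (median 187) and from 165 to 277 CPM in MMS pups (median 201). MMS 2 was its highest library. Between the groups the log2 fold change of Ptprz1 was 0.10 (95% interval -0.17 to 0.37, edgeR adjusted p = 0.807).

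Pdgfra (5:75152292-75198215, plus strand), through which the growth factor PDGF-A keeps precursors dividing, varied least among the controls. They ran from 69.5 to 84.7 CPM (median 76.3), a coefficient of variation of 6.71% where counting error alone gives 5.12%. MMS pups ran from 69.2 to 116 CPM (median 76.6). MMS 2 (116 CPM) and MMS 4 (97.4 CPM) were above all controls, and the other MMS pups lay between 69.2 and 76.9 CPM. MMS relative to control, the log2 fold change was 0.15 (95% interval -0.11 to 0.40, edgeR adjusted p = 0.697), and -0.047 without those libraries. Cspg4 (9:56865033-56899870, plus strand), which encodes NG2, ran from 25.5 to 33.7 CPM in controls (median 32.2) and from 30.9 to 53.7 CPM in MMS pups (median 36.3). MMS pups exceeded all controls in 4 of 6 cases, and MMS 2 stood at 53.7 CPM, away from the next at 36.9 CPM. Its log2 fold change was 0.30 (95% interval -0.0041 to 0.60, edgeR adjusted p = 0.552), 0.18 without MMS 2 and 0.16 without MMS 2 and MMS 4. NG2 is carried by pericytes as well, whose 8 markers summed to 140 to 172 CPM in controls and 123 to 174 CPM in MMS pups, with 7 tested and 0 at an unadjusted p under 0.05. In MMS 2 they summed to 156 CPM, inside the control range. Of that list, Kcnj8 was above all controls there, at 6.72 CPM against at most 5.27 CPM. Ndufa4l2 was below all controls there, at 1.34 CPM against at least 1.51 CPM, and the others were within the control range. The part of pericytes in the level of Cspg4 was not tested.

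The transcription factors of the precursor stage showed no shared shift. Olig1 ran from 295 to 439 CPM in controls (median 401) and from 297 to 484 CPM in MMS pups (median 378), with a log2 fold change of 0.023 (95% interval -0.23 to 0.27, edgeR adjusted p = 0.958). The groups overlapped almost wholly. Olig2 lay between 46.9 and 70.9 CPM in the 12 libraries (log2 fold change -0.049) and Sox10 between 33.7 and 52.8 CPM (0.073). Sox10, which is needed from precursor to myelin, had the tightest MMS group of all lineage genes, with a coefficient of variation of 7.78%. Nkx2-2 (2:147177546-147194243, minus strand), which promotes the onset of differentiation and also patterns ventral neurons, had the lowest fold change of the stage. It ran from 37.6 to 65.3 CPM in controls (median 50.9) and from 29.3 to 59.3 CPM in MMS pups (median 36.2). MMS pups lay below all controls in 4 of 6 cases, the highest of these at 37.5 CPM, just under the lowest control, while MMS 5 and MMS 6 were within the control range. In edgeR the log2 fold change was -0.34 (95% interval -0.68 to 0.0076, edgeR adjusted p = 0.552), and -0.19 without MMS 2 and MMS 4. It crossed an unadjusted p of 0.05 in 6 of 18 other fits, and its adjusted p was 0.338 or higher in all of them. Cnp (10), Bcas1 (9), Cspg4 (8) and Gjc3 (7) crossed it in more of these fits. The antisense gene Nkx2-2os overlaps Nkx2-2, and the strand setting of the counting is not known.

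**Figure D3:**
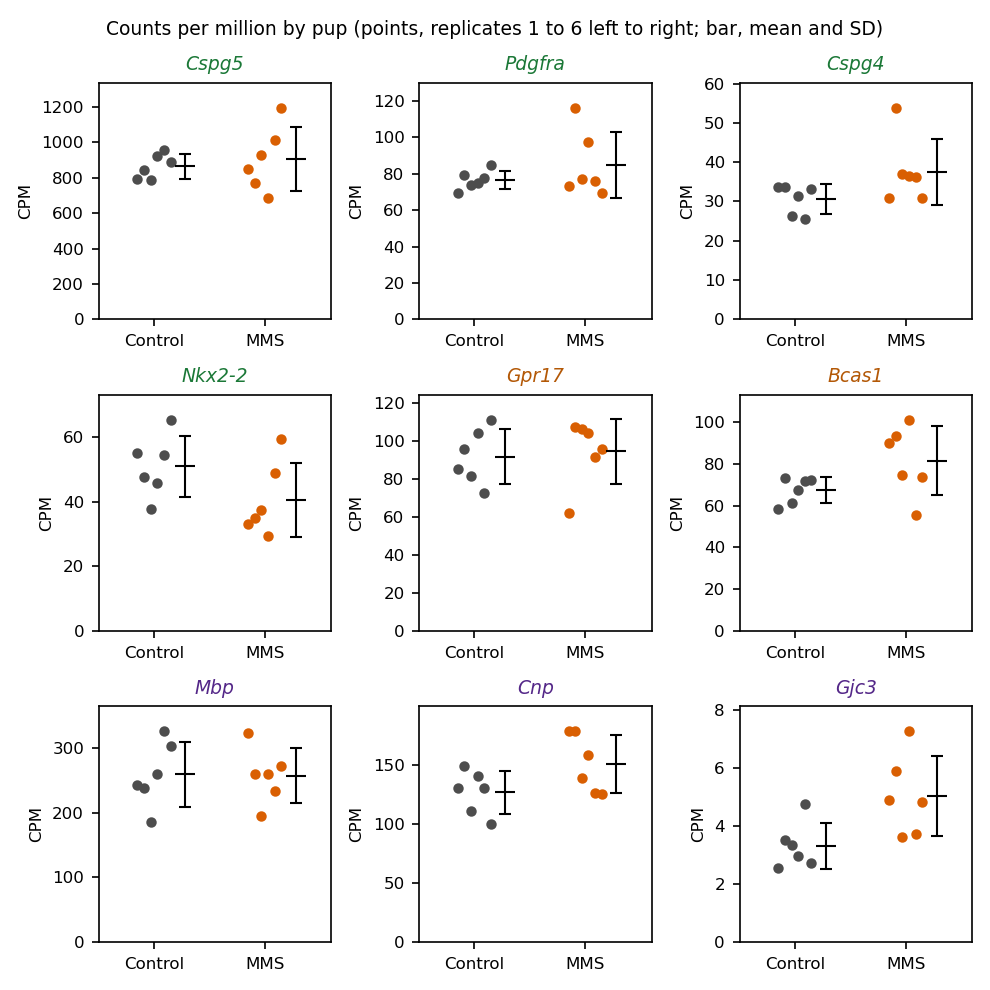
CPM in each pup for 9 lineage genes, precursor genes with green titles, newly formed with orange and myelinating with purple. Points are replicates 1 to 6 from left to right, and the bar is the mean and SD of 6 pups. MMS 2 and MMS 4 are the 2 highest points of Pdgfra, Bcas1 and Gjc3, and each panel shows overlap between the groups.

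In the newly formed stage, Bcas1 (2:170346991-170427845, minus strand), a marker of early myelinating cells, was at 58.1, 73.1, 61.4, 67.2, 71.6 and 72.3 CPM in controls 1 to 6. In MMS pups 1 to 6 it was at 90.1, 93.5, 74.8, 101, 55.7 and 73.7 CPM. MMS pups were above all controls in 5 of 6 cases, and MMS 5 was below all of them. The log2 fold change was 0.28 (95% interval 0.0097 to 0.55, edgeR adjusted p = 0.544), and 0.13 without MMS 2 and MMS 4 (edgeR adjusted p = 0.964). The antisense genes Bcas1os1 and Bcas1os2 overlap it. Gpr17, an orphan receptor that halts cells before maturation, ran from 72.4 to 111 CPM in controls (median 90.2) and from 62.0 to 107 CPM in MMS pups (median 99.6), with MMS 1 alone below the controls. Between the groups the log2 fold change was 0.042 (95% interval -0.24 to 0.32, edgeR adjusted p = 0.927). Lims2 overlaps Gpr17 on the opposite strand.

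Myrf, which turns on the myelin programme, ran from 5.37 to 12.2 CPM in controls (median 9.82) and from 8.18 to 19.9 CPM in MMS pups (median 12.3). MMS 2 was highest, Control 3 was lowest, and 3 MMS pups exceeded all controls. Its log2 fold change was 0.43 (95% interval -0.061 to 0.91, edgeR adjusted p = 0.576), and 0.19 without MMS 2 and MMS 4. Enpp6, a choline phosphodiesterase of cells just entering myelination, was low, at 3.52 to 10.1 CPM in controls and 4.85 to 11.3 CPM in MMS pups, and had a log2 fold change of 0.47 (95% interval -0.11 to 1.06, edgeR adjusted p = 0.592). Itpr2, a calcium release channel that astrocytes share, ran from 41.4 to 53.8 CPM in controls (median 47.1) and from 32.7 to 59.9 CPM in MMS pups (median 44.3). MMS 1 was above the controls and 2 MMS pups were below them, with a log2 fold change of -0.078 (95% interval -0.35 to 0.20, edgeR adjusted p = 0.86).

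Tcf7l2 (19:55741820-55933654, plus strand), the Wnt effector of newly formed oligodendrocytes, varied most among the controls of the 30 lineage genes tested. It was at 492, 132, 127, 410, 68.8 and 101 CPM in controls 1 to 6, and at 332, 319, 69.3, 145, 418 and 114 CPM in MMS pups 1 to 6. High and low pups were found in both groups. MMS relative to control, the log2 fold change was 0.073 (95% interval -1.28 to 1.43, edgeR adjusted p = 0.974), and leaving out 1 library moved it between -0.17 and 0.48. Thalamic neurons also make Tcf7l2, and the 13 thalamic markers examined summed to 1467 to 2023 CPM in controls and 1415 to 2053 CPM in MMS pups, with 13 tested and 0 at an unadjusted p under 0.05. Calb2, Slc17a6 and Zfhx3, which the hypothalamus expresses too, made up most of that sum. Gbx2, a thalamic transcription factor, was at 19.2 CPM in Control 1 and 16.9 CPM in MMS 5, the libraries highest in Tcf7l2, and between 1.08 and 6.12 CPM in the other 10. Shox2, another marker of that list, was at 20.4, 13.5 and 11.6 CPM in Control 1, Control 4 and MMS 5, and at most 6.72 CPM elsewhere. Of the other markers, Lef1, Plekhg1, Synpo2 and Ntng1 were also highest in Control 1, and Calb2 was highest in MMS 5. Rora was highest in MMS 3, Ramp3 and Slitrk6 in MMS 6, Prkcd in MMS 1, Slc17a6 in Control 5 and Zfhx3 in MMS 2. Gbx2 and Shox2 were singled out after their values were seen, and the part of thalamic tissue in the level of Tcf7l2 was not tested.

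**Figure D4:**
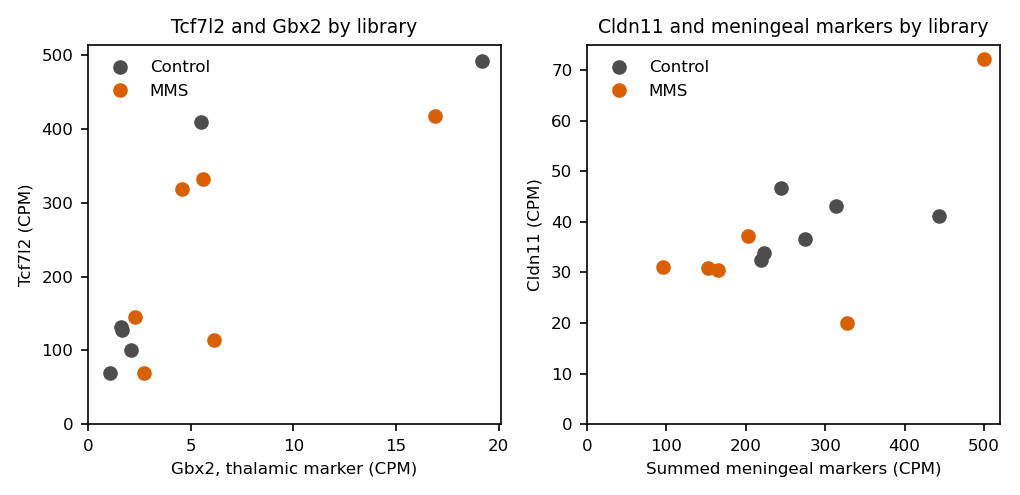
Left, Tcf7l2 against the thalamic marker Gbx2, both in CPM, in the 12 libraries. Right, Cldn11 against the summed CPM of 8 meningeal and fibroblast markers. Control 1 and MMS 5 are the highest libraries on both axes of the left panel, and MMS 1 is highest on both axes of the right panel. MMS 3, the lowest library in Cldn11, is at 327 CPM on the meningeal axis.

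Of the myelin genes, those for structural proteins made early were well above the counting floor. Mbp, which encodes myelin basic protein and compacts the sheath, ran from 186 to 325 CPM in controls (median 251) and from 195 to 323 CPM in MMS pups (median 259). The groups covered nearly the same range. Its log2 fold change was -0.01 (95% interval -0.28 to 0.26, edgeR adjusted p = 0.984). Cnp (11:100574904-100591729, plus strand), whose product keeps cytoplasmic channels of the sheath open, was at 130, 149, 111, 140, 130 and 100 CPM in controls and at 178, 178, 139, 158, 126 and 125 CPM in MMS pups. MMS 1, MMS 2 and MMS 4 were above all controls and the others within their range. In edgeR the log2 fold change was 0.26 (95% interval 0.0055 to 0.51, edgeR adjusted p = 0.544), and 0.18 without MMS 2 and MMS 4 (edgeR adjusted p = 0.964). Dnajc7 overlaps Cnp on the opposite strand.

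Sirt2, a deacetylase carried into myelin that neurons also make, ran from 92.7 to 171 CPM in controls (median 151) and from 134 to 208 CPM in MMS pups (median 151), with 2 MMS pups above the controls, and Nfkbib overlaps it on the opposite strand. The log2 fold change was 0.18 (95% interval -0.12 to 0.47, edgeR adjusted p = 0.684). Nfasc, whose isoforms anchor the paranode and the axon initial segment, ran from 95.8 to 136 CPM in controls (median 112) and from 77.0 to 154 CPM in MMS pups (median 116). MMS 4 and MMS 2 were below the controls and MMS 3 above them. Between the groups the log2 fold change of Nfasc was -0.025 (95% interval -0.32 to 0.27, edgeR adjusted p = 0.961). Tspan2, a tetraspanin of early myelin, had nearly the same range in both groups, 67.8 to 97.0 CPM and 68.1 to 96.7 CPM, and a log2 fold change of -0.036.

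A further group of genes serves gap junctions and the glycolipids of the sheath. Gjc3 (5:137953461-137963098, minus strand), which encodes the connexin Cx29, was at 2.58, 3.53, 3.36, 2.98, 4.78 and 2.74 CPM in controls and at 4.92, 5.91, 3.63, 7.27, 3.73 and 4.83 CPM in MMS pups, from 232 counts in all. MMS pups were above all controls in 4 of 6 cases, and MMS 4 and MMS 2 were highest. Its log2 fold change of 0.60 was the largest among the lineage genes tested (95% interval 0.016 to 1.17, edgeR adjusted p = 0.544). Without MMS 2 and MMS 4 it was 0.35 (edgeR adjusted p = 0.964). Ugcg, which makes the glucosylceramide core of glycolipids in many cell types, stood at 65.0 CPM in MMS 2 and 71.8 CPM in MMS 4, above the controls at 29.3 to 45.9 CPM, while the other MMS pups lay between 26.4 and 37.2 CPM. Its log2 fold change was 0.32 (edgeR adjusted p = 0.648), and -0.14 without MMS 2 and MMS 4. Ugt8a, which makes galactosylceramide, ran from 5.15 to 18.0 CPM (log2 fold change 0.16), and Fa2h, which hydroxylates its fatty acid, from 1.51 to 5.91 CPM (-0.13).

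The remaining myelin genes overlapped between the groups. Mag, an adhesion protein facing the axon, ran from 14.6 to 26.4 CPM in controls and from 17.6 to 40.3 CPM in MMS pups (log2 fold change 0.29, and 0.19 without MMS 2 and MMS 4), with MMS 1 and MMS 2 above all controls. Mobp, a later structural protein, ran from 5.70 to 21.3 CPM and from 5.75 to 16.4 CPM and had the lowest fold change of all tested lineage genes, at -0.36 (95% interval -0.95 to 0.24, edgeR adjusted p = 0.686). Trf (transferrin), the iron carrier that choroid plexus also makes, lay between 12.7 and 21.2 CPM in the 12 libraries (-0.15). It was 15.3 CPM in Control 3, where 8 choroid plexus markers summed to 1812 CPM, 1735 CPM of it from Ttr. In the other 11 libraries these markers summed to 23.8 to 57.1 CPM, and their part in the level of Trf was not tested. Gpr37 (0.17), Aspa (0.14) and Mal (-0.069), a receptor, the enzyme that cleaves N-acetylaspartate and a membrane-sorting protein, reached at most 15.5, 6.21 and 4.63 CPM in a library.

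Cldn11 (3:31149920-31164324, plus strand), the tight junction protein of central myelin, is also made by the meninges. It ran from 32.5 to 46.7 CPM in controls (median 38.9) and was at 72.3, 37.3, 20, 30.5, 31.0 and 30.9 CPM in MMS pups 1 to 6. MMS 1 was above all controls and 4 MMS pups were below them. MMS relative to control, the log2 fold change was -0.075 (edgeR adjusted p = 0.924), and -0.37 without MMS 1 (edgeR adjusted p = 0.402). The 8 meningeal and fibroblast markers summed to 219 to 443 CPM in controls and 96.3 to 500 CPM in MMS pups, with MMS 1 the highest library. MMS 3, the library lowest in Cldn11, had the next highest sum among MMS pups, at 327 CPM. Of these markers 7 were tested, 1 was higher and 6 were lower in MMS, and 1 of the lower ones had an unadjusted p under 0.05. Their part in the level of Cldn11 was not tested.

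The 3 genes of the latest myelin proteins did not pass the count filter. Opalin had 3 counts in all, 2 in controls and 1 in MMS pups. Where it had 0 counts, 3 counts would correspond to 0.463 to 0.966 CPM. Mog had 68 counts, up to 2.16 CPM in controls and up to 3.86 CPM in MMS pups, and Ermn had 70 counts, up to 2.29 and 2.75 CPM. In the edgeR fit without a count filter their log2 fold changes were 1.01 for Mog (95% interval -0.26 to 2.28, adjusted p = 0.616) and 0.98 for Ermn (95% interval -0.22 to 2.17, adjusted p = 0.611). The intervals of Mog and Ermn are wide and include 0. That of Opalin ran from -4.08 to 3.08, so its 3 counts cannot decide whether the groups differ. Intervals cover the spread between libraries and counting error, floors cover counting error alone, and reads without molecular identifiers are not independent molecules.

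The spread between pups differed widely among the 30 tested genes. The coefficient of variation among controls ran from 6.71% (Pdgfra) to 81.5% (Tcf7l2), with a median of 17.2%. Among MMS pups it ran from 7.78% (Sox10) to 66.7% (Aspa), with a median of 23.3%. MMS 2 was the highest of the 12 libraries for 8 of 30 lineage genes and MMS 4 for 4, while these libraries together were highest for 29.5% of all genes tested. At the other end, Control 3 was the lowest library for 9 of 30 lineage genes, namely Olig1, Sox10, Ptprz1, Enpp6, Myrf, Mbp, Mag, Mobp and Tspan2, where it was lowest for 5.65% of all genes. Its precursor sum of 1458 CPM and its myelinating sum of 725 CPM were the lowest of the 12. Control 3 is also the library with the high choroid plexus markers, and their part in its low lineage values was not tested.

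**Figure D5:**
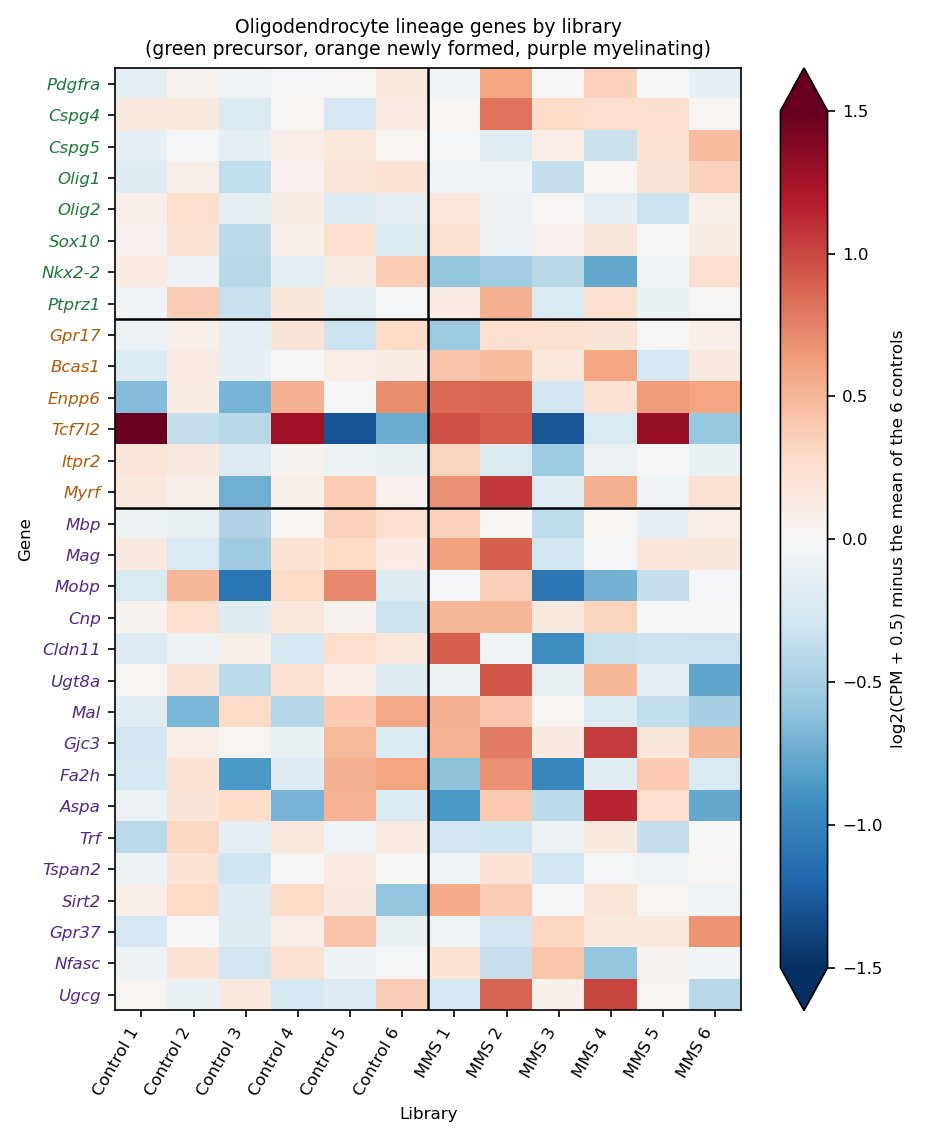
Heat map of the 30 lineage genes tested (rows, by stage) in the 12 libraries (columns), as log2(CPM + 0.5) minus the mean of the 6 controls. Red is above and blue below that mean. MMS 2 and MMS 4 are red for Pdgfra, Bcas1, Gjc3 and Ugcg, Control 3 is blue for Olig1, Sox10, Ptprz1, Enpp6, Myrf, Mbp, Mag and Mobp, and the Tcf7l2 row has extremes in both groups.

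Other genes of the lineage were taken from lists written from general knowledge. Of 27 further precursor and newly formed genes tested, 0 were past an adjusted p of 0.05 in edgeR, and 8 (29.6%) had an unadjusted p under 0.05, 5 higher and 3 lower in MMS, where 9.08% of all genes did. The median log2 fold change of the 27 was -0.028. The lower ones were Sox4, Sox11 and Hes5. Sox4 and Sox11 are transcription factors of immature neurons and precursors, and Hes5 is a Notch target that restrains differentiation. Sox4 ran from 305 to 397 CPM in controls (median 321) and from 190 to 311 CPM in MMS pups (median 252), with 5 of 6 below all controls (log2 fold change -0.45, edgeR adjusted p = 0.443). Sox11 was -0.35 (edgeR adjusted p = 0.543). Hes5 was -0.45 (edgeR adjusted p = 0.543), with 159 CPM in MMS 4 and 167 CPM in MMS 2 against 281 to 368 CPM in controls. Without MMS 2 and MMS 4 the values were -0.30 for Sox4, -0.20 for Sox11 and -0.23 for Hes5, and 5 of 28 genes had an unadjusted p under 0.05, 1 higher and 4 lower, where 5.03% of all genes did. The 2 of smallest p among the higher genes were Omg, the oligodendrocyte myelin glycoprotein (0.50), and Id2, an inhibitor of differentiation (0.33), each with an edgeR adjusted p of 0.543. Omg lay between 25.0 and 27.2 CPM in all controls and reached 51.8 and 50.0 CPM in MMS 2 and MMS 4. Without those libraries the log2 fold change was 0.16 for Omg and 0.24 for Id2 (edgeR unadjusted p = 0.258 and 0.0396).

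Of 25 further myelin genes tested, 0 were past an adjusted p of 0.05 in edgeR and 5 had an unadjusted p under 0.05, 2 higher and 3 lower, where 9.08% of all genes did, with a median log2 fold change of -0.0076. The log2 fold change of Tmeff2 was 0.36 and that of Tppp, a microtubule protein of oligodendrocytes, was -0.35, each with an edgeR adjusted p of 0.543. They were 0.13 and -0.19 without MMS 2 and MMS 4. In that fit 2 of 25 genes, 0 higher and 2 lower, had an unadjusted p under 0.05, where 5.03% of all genes did. Among the most abundant, Cd81 and Gpm6b were both at 0.12 (0.095 and 0.011 without MMS 2 and MMS 4). Ptgds, a prostaglandin synthase of meninges and oligodendrocytes, ranged from 23.6 to 1871 CPM. It was highest in MMS 1, as Cldn11 was, and at 700 CPM in MMS 3, where Cldn11 was lowest. The median of Ptgds was 328 CPM in controls (49.5 to 944) and 82.7 CPM in MMS pups. MMS 2, 4, 5 and 6 lay at 108, 23.6, 29.4 and 57.6 CPM, against 1871 CPM in MMS 1. Ptgds had a log2 fold change of 0.18 (SE 1.16, 95% interval -2.41 to 2.77), opposite in direction to the medians. Without MMS 2 and MMS 4 the fold change was 0.70 (edgeR unadjusted p = 0.575). With so wide an interval, these values cannot decide whether Ptgds was higher or lower in MMS.

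Signals that act on the lineage were also examined, and of 33 tested 0 were past an adjusted p of 0.05 in edgeR, 4 (12.1%) had an unadjusted p under 0.05, 2 higher and 2 lower, where 9.08% of all genes did, and the median was -0.011. Without MMS 2 and MMS 4 it was 7 of 33 (21.2%), 5 higher and 2 lower, where 5.03% of all genes had such a p. Klf9, a transcription factor induced by thyroid hormone and glucocorticoids that promotes oligodendrocyte differentiation, ran from 49.8 to 72.0 CPM in controls and from 74.7 to 106 CPM in MMS pups. The groups did not overlap, as in 0.389% of all genes. The log2 fold change of Klf9 was 0.56 (95% interval 0.31 to 0.80, edgeR adjusted p = 0.340), and 0.56 also without MMS 2 and MMS 4. Lifr, a subunit of the receptor for leukaemia inhibitory factor, was 0.55, Notch1, which holds precursors undifferentiated, was -0.45, and Tgfb2 was -0.33, each with an edgeR adjusted p of 0.543. Lifr was at 38.1 and 38.3 CPM in MMS 2 and MMS 4 and at 17.3 to 23.9 CPM in the other MMS pups, and without those libraries the values were 0.18 for Lifr, -0.50 for Notch1 and -0.19 for Tgfb2. The most abundant were Thra, the thyroid hormone receptor alpha (0.10), Gpr56, now Adgrg1, which keeps precursors dividing (-0.14), and Lingo1, an inhibitor of differentiation (-0.011). These were 0.20, -0.13 and 0.083 without MMS 2 and MMS 4.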

How the data were processed

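The authors prepared QuantSeq 3' mRNA libraries, sequenced them on an Ion Proton and aligned reads to mm10 in Torrent Suite. The deposited values are raw counts per gene, 1 column per library. The sources used here do not give the counting tool, strand setting or annotation, so reads of overlapping genes may be mixed. Of 43280 rows, 27 carry a calendar date as symbol.

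Libraries were grouped by title. The 30 pairs within groups differed beyond sampling noise (chi-square per degree of freedom 4.04 to 31.5), so all 12 were kept. MMS was compared with control by the two-sided quasi-likelihood test of edgeR 4.0.16 (R 4.3.3; TMM scaling, robust fits, default filter with a minimum count of 10), adjusted by Benjamini-Hochberg over 13104 genes, with a threshold of 0.05. The fits were tested on simulated data. DESeq2 1.42.0, limma-voom (limma 3.58.1), other scaling, no filter, a replicate block and left-out libraries were alternatives. Coordinates are 1-based, from GENCODE M21 on GRCm38, which is mm10. The study's methods describe independent litters for the neonatal groups. The labels do not tie libraries to litters. The p-values set the difference between the groups against the spread between these samples, treated as independent.

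The named genes were all 33 members and, of each of 3 further lists, the 2 tested genes of smallest p in each direction and the 3 of highest mean CPM, apart from some genes that are not reported here. Members with a p under 0.05 and the 4 of highest mean CPM per stage were described in full. Other genes and members described in full were chosen after their values were seen. Members and lists were chosen with earlier results of these data known. Of the listed genes 4 had no row under their symbol. The other lists were markers of astrocytes, pericytes, meninges, choroid plexus, ependymal cilia, thalamus, neurons, microglia, Schwann cells and hypothalamus.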

Additional observations from a re-analysis of the deposited data

Results flagged for a closer look

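In 4 of 66 sets of 6 values (the 30 tested genes and the 3 stage sums in each group) Dixon's criterion marked 1 library as distant from its group. Chance alone would mark about 3.3. Cspg4 was at 53.7 CPM in MMS 2, where the next highest MMS library was at 36.9 CPM. Gpr17 was at 62.0 CPM in MMS 1, where the next lowest was at 91.6 CPM. Myrf was at 5.37 CPM in Control 3, where the next lowest control was at 9.69 CPM. Cldn11 was at 72.3 CPM in MMS 1, where the next highest was at 37.3 CPM. The causes were not tested.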

How the results depend on the processing

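No lineage gene was past an adjusted p of 0.05 in any of the 540 gene-wise results from other fits, where the lowest adjusted p was 0.240 (edgeR, DESeq2 and limma-voom). Over all genes the count past the threshold was 0 in edgeR, 7 in DESeq2, 1 without a count filter, 1 with the replicate block, 5 without MMS 2 and MMS 4, and 0 to 1 on leaving out 1 library. At an unadjusted p under 0.05 it was 1190, then 2039 without a filter, 674 without MMS 2 and MMS 4, and 700 (without MMS 2) to 1804 (without MMS 5) on leaving out 1 library. The lineage count at that p was 3, then 1 without MMS 2 and MMS 4 and 0 to 5 on leaving out 1 library. In the further lists 1 gene was past the threshold in DESeq2 (Klf9) and 1 without MMS 2 and MMS 4 (Igf1r). The stage medians and sums moved by less than the spread between libraries. The same sign was kept in every fit by 14 of 30 genes. Without MMS 2 and MMS 4 the sign changed for Pdgfra (-0.047), Ptprz1 (-0.052), Gpr17 (-0.041), Ugt8a (-0.26), Aspa (-0.48), Nfasc (0.16) and Ugcg (-0.14). It changed for Mbp without a filter (0.0021) and for Aspa with the replicate block (-0.0017). On leaving out 1 library, ranges that crossed 0 were those of Cspg5 (-0.028 to 0.14), Olig1 (-0.048 to 0.089), Olig2 (-0.082 to 0.014), Gpr17 (-0.009 to 0.15), Tcf7l2 (-0.17 to 0.48), Mbp (-0.09 to 0.075), Cldn11 (-0.37 to 0.047), Ugt8a (-0.047 to 0.29), Mal (-0.20 to 0.08), Fa2h (-0.34 to 0.021), Aspa (-0.26 to 0.32), Tspan2 (-0.092 to 0.01) and Nfasc (-0.13 to 0.077). The causes were not tested. The deviations of same-numbered libraries from their group means correlated at -0.0476 to 0.116 over all genes. These values cannot decide whether same-numbered pups share a litter, which the labels do not give. The replicate block left 2 lineage genes at an unadjusted p under 0.05 in edgeR (Nkx2-2 and Cnp).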

Other observations

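Igf1r, the receptor for a growth factor that supports the survival of oligodendrocytes and of many other cells, was singled out after its values were seen. It lay between 34.2 and 45.7 CPM in all 6 controls. In MMS pups 1, 3, 5 and 6 it was at 72.3, 76.6, 53.3 and 58.6 CPM, above all controls, and in MMS 2 and MMS 4 it was at 17.2 and 13.1 CPM, below all of them. Over all 12 libraries Igf1r had a log2 fold change of 0.24 (95% interval -0.60 to 1.08, edgeR adjusted p = 0.849), and without MMS 2 and MMS 4 it was 0.68 (edgeR adjusted p = 0.0164). Its ligand Igf1 ran from 22.6 to 43.3 CPM in controls and from 21.3 to 33.7 CPM in MMS pups, with a log2 fold change of -0.27 (edgeR adjusted p = 0.623).

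The astrocyte markers summed to 3099 to 3650 CPM in controls and 3404 to 3848 CPM in MMS pups, the neuronal markers to 8867 to 10005 and 8133 to 9976 CPM, the microglial markers to 173 to 226 and 163 to 217 CPM, and the ependymal cilia markers to 114 to 245 and 31.7 to 247 CPM. None of these 4 lists held a gene past an adjusted p of 0.05 in edgeR, and at an unadjusted p under 0.05 there were 2 of 12 astrocyte, 3 of 12 neuronal, 1 of 8 microglial and 1 of 12 ependymal genes tested, where 9.08% of all genes had such a p. All 12 ependymal genes tested had a log2 fold change below 0 (median -0.65), and their sum was lowest in MMS 2 (31.7 CPM) and MMS 4 (61.5 CPM). Without those libraries 9 of 13 were below 0 (median -0.26).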
